A study of Mus musculus with 3 samples.

Results

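The 10 smooth muscle contractile genes Acta2, Actg2, Myh11, Tagln, Cnn1, Des, Lmod1, Mylk, Smtn and Pln were followed in whole proximal jejunum, a stretch of upper small intestine, of mice labelled Sox4 knockout. They were chosen as a list by gene symbol, and all 10 were found among the 20738 genes named on the arrays. RNA of 3 mice labelled Sox4 knockout, whose sample names carry the villin-Cre transgene (vilCre), was set against wild-type RNA of the same tissue on 3 arrays with 2 colours, 1 knockout mouse to an array. Knockout RNA carried Cy5 and wild-type RNA Cy3 on every array. The villin promoter drives Cre in the intestinal epithelium, so the muscle of the gut wall is not a tissue in which this Cre is meant to act. Strain, age, sex, the alleles of the wild-type mice and whether their RNA was pooled are not given in the labels. Each value below is the log2 ratio of knockout over wild type. That direction is the likely one given the dyes and would turn, with every sign, if the table held the inverse. The log base is taken as 2, and under the natural logarithm each fold would be larger.

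Smooth muscle forms the outer layers of the gut wall, the thin muscle under the mucosa and the walls of its vessels. It contracts when calcium and calmodulin switch on myosin light chain kinase, which phosphorylates the regulatory light chain of smooth muscle myosin and lets it pull on actin filaments. Serum response factor, with its coactivator myocardin, drives many of these genes from a DNA element called the CArG box. The table holds ratios and no levels, so whether the markers of muscle or epithelium were abundant in the RNA could not be checked. In whole tissue, fewer muscle cells and less RNA per muscle cell cannot be told apart.

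The upstream sequences of 3 members are shown because these genes had 3 different patterns over the arrays, described below: Acta2 was highest on array 2, Lmod1 was level, and Pln was lowest on array 2. Each is the 250 bases before the annotated start, read from RefSeq on build GRCm38.p6 in the direction of the gene. Capitals mark matches to the CArG box with at most 1 letter departing from it.
Acta2, chr19:34255374-34255623, minus strand: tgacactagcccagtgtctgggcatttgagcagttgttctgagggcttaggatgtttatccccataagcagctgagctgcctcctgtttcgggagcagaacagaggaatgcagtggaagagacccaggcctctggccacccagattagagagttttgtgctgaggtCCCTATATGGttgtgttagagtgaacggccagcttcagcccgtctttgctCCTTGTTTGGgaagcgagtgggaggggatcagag
Lmod1, chr1:135324563-135324812, plus strand: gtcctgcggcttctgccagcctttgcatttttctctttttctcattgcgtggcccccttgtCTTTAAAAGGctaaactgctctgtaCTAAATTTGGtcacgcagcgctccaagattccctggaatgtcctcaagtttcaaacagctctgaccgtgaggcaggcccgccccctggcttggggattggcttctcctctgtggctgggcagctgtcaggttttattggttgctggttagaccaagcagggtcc
Pln, chr10:53337436-53337685, plus strand: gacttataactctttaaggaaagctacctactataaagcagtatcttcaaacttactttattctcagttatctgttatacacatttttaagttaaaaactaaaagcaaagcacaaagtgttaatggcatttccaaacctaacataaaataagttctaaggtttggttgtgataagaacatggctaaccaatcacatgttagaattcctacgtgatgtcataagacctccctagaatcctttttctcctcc

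Such a sequence was available for this work for 7 of the 10 members (Acta2, Cnn1, Des, Lmod1, Mylk, Smtn and Pln). Actg2, Myh11 and Tagln could not be searched, so the counts below do not cover them. The CArG box reads the same on both strands, so 1 search covered both. None of the 7 held the exact box, which 1.47% of 32851 promoters held. With at most 1 letter departing, 2 of the 7 held matches, Acta2 with CCCTATATGG and CCTTGTTTGG and Lmod1 with CTTTAAAAGG and CTAAATTTGG, against 18.6% of all promoters. The Acta2 matches began 84 and 34 bases before the start, and those of Lmod1 189 and 164 bases before it. Cnn1, Des, Mylk and Smtn, which like Acta2 were highest on array 2, held no match, so Acta2 does not stand for the promoters of that pattern. A match is a run of letters in this window, and nothing here measured binding.

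The arrays were alike in centring, with gene medians of -0.03, -0.03 and -0.00 and SDs across genes of 0.47, 0.50 and 0.46 on arrays 1, 2 and 3. Sox4 itself had ratios of -0.66, 0.18 and -0.46, so the library labelled knockout on array 2 did not lie below wild type for the mean of the 3 Sox4 features. These features differed, and 1 of them was below 0 on every array (-1.21, -0.72 and -0.93). The others had -0.82, 0.03 and -0.43, and 0.06, 1.23 and -0.02. The position of the 3 features relative to the deleted part is not used here. The Y-linked gene Eif2s3y averaged -7.28 ± 0.25 and Xist, the RNA of the inactive X chromosome, 1.71 ± 0.18 (SD, n = 3), so sex and genotype cannot be told apart in any value given here. With no dye swap, neither can a gene's dye effect.

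No member passed the threshold of an adjusted p of 0.05 in limma's test over all genes, in either direction, where 0.328% of all genes did (68 of 20738), 0.222% lower and 0.106% higher. Before adjustment, 4 members had a p under 0.05, namely Pln, Cnn1 and Actg2 below 0 and Smtn above it, where 26.3% of all genes had one. Leaving out array 1, 2 or 3 gave 2, 4 or 0 such members, beside 15.8%, 22.1% or 18.7% of all genes. The member medians were -0.21 on array 1, 0.30 on array 2 and -0.47 on array 3, against -0.03, -0.03 and -0.00 over all genes. The median of the member means was -0.17, against -0.03 over all genes, and it was -0.19, -0.39 or -0.02 when array 1, 2 or 3 was left out. A mean below 0 was found for 8 of the 10 members, where 53.6% of all genes had one, and for 6, 9 and 5 members without arrays 1, 2 and 3. Signs were the same on all 3 arrays for 4 members (Cnn1, Lmod1 and Pln below 0, Smtn above), where 50.6% of all genes kept 1 sign, 27.3% below 0 and 23.2% above it.

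**Figure D1:**
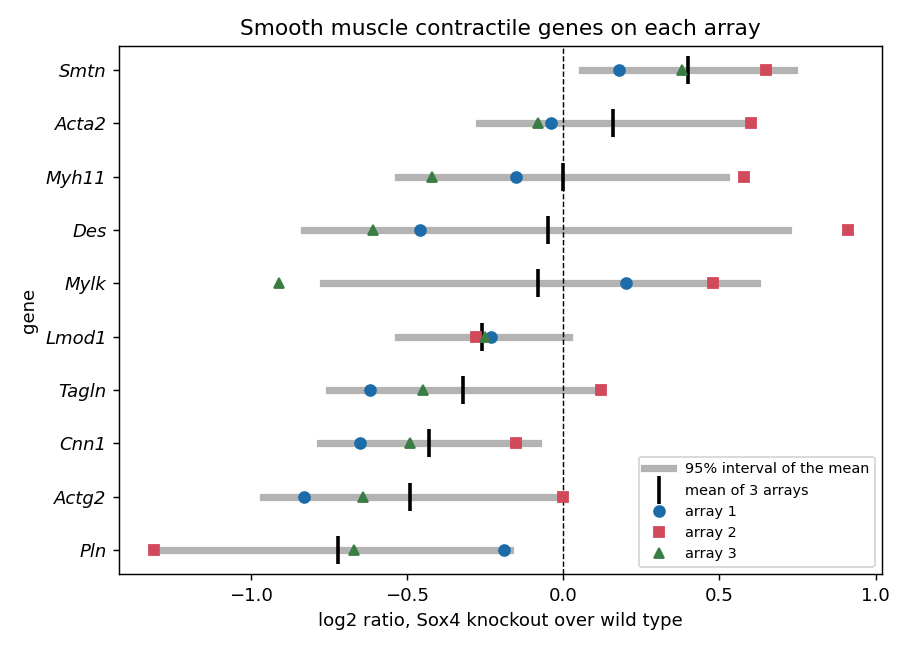
Log2 ratio of knockout over wild type (horizontal axis) for each of the 10 genes (rows), with 1 symbol per array, the mean as a vertical bar and the 95% interval of limma's moderated test in grey. Array 2 is the rightmost symbol for 8 genes and the leftmost for Pln, and the Lmod1 symbols nearly coincide.

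Actins make the thin filaments. Acta2 encodes alpha smooth muscle actin, found in visceral and vascular muscle, and had ratios of -0.04, 0.60 and -0.08 on arrays 1, 2 and 3. It lay near 0 on 2 arrays and 1 value, that of array 2, stood above them, with a mean of 0.16 ± 0.38 (95% interval -0.27 to 0.59, adjusted p = 0.579). Actg2 encodes gamma smooth muscle actin, the main actin of gut muscle, and had -0.83, 0.00 and -0.64. It was below 0 on arrays 1 and 3 and level with wild type on array 2, and its mean of -0.49 ± 0.44 corresponded to 1.4-fold lower (interval -0.96 to -0.02, unadjusted p = 0.0431 and adjusted p = 0.178 from limma). On each of the 3 arrays the ratio of Actg2 was thus below that of Acta2, by amounts whose difference was not tested. The coding sequences of actins are closely alike, and how far the probes tell them apart was not tested.

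Myosin and its kinase pull on and control these filaments. Myh11, the heavy chain of smooth muscle myosin, had -0.15, 0.58 and -0.42, so its arrays lay on both sides of 0 and their mean was -0.00 ± 0.52 (interval -0.53 to 0.52, adjusted p = 1). Mylk, the kinase that starts contraction, had 0.20, 0.48 and -0.91, the only member with array 1 above 0 and array 3 below it. Its mean was -0.08 ± 0.74 (interval -0.77 to 0.62, adjusted p = 0.879), and 3.45% of all genes had a larger SD over the arrays. For these 2 genes the interval reaches well to both sides of 0.

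Tagln, Cnn1, Lmod1 and Smtn encode proteins bound to the actin filament. Tagln (transgelin, also called SM22 alpha, an actin-binding protein) had -0.62, 0.12 and -0.45, below 0 on arrays 1 and 3, with a mean of -0.32 ± 0.39 (adjusted p = 0.294). Cnn1 (calponin, which damps the myosin ATPase on actin) had -0.65, -0.15 and -0.49. It was below 0 on every array, with a mean of -0.43 ± 0.25, or 1.35-fold lower (interval -0.78 to -0.08, adjusted p = 0.138). Lmod1 (leiomodin, which starts new actin filaments) had -0.23, -0.28 and -0.25. This was the member with the smallest spread, 98.8% of all genes having a larger SD, and its mean of -0.26 ± 0.03 (interval -0.53 to 0.02) had an adjusted p of 0.208. Smtn (smoothelin, bound to the actin of contractile muscle) had 0.18, 0.65 and 0.38. It was the 1 member above 0 on every array, with a mean of 0.40 ± 0.23, or 1.32-fold higher (interval 0.06 to 0.74, adjusted p = 0.146).

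Des and Pln do other work in the muscle cell. Des encodes desmin, the intermediate filament that links the contractile units, and had -0.46, 0.91 and -0.61. Arrays 1 and 3 lay below 0 and array 2 well above it, the widest range of any member (1.52), and the mean was -0.05 ± 0.84 (interval -0.83 to 0.72, adjusted p = 0.923). Pln encodes phospholamban, which restrains the calcium pump of the sarcoplasmic reticulum, and had -0.19, -1.31 and -0.67. It was below 0 on every array and lowest on array 2, with the lowest mean of the 10 at -0.72 ± 0.56, or 1.65-fold lower (interval -1.28 to -0.17, adjusted p = 0.129). Of all genes, 2.86% had a lower mean than Pln.

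Several features report some of these genes and show how well an array repeats itself. Acta2 and Des each had 10 features. Those of Acta2 ranged from -0.14 to 0.05 on array 1, from 0.56 to 0.65 on array 2 and from -0.14 to -0.03 on array 3. Those of Des ranged from -0.58 to -0.38, from 0.86 to 1.06 and from -0.66 to -0.55 on the same arrays. All 10 features of each gene stood higher on array 2 than any did on arrays 1 and 3, and the SD over features within an array was 0.03 to 0.06, against an SD over arrays of 0.38 for Acta2 and 0.84 for Des. The features of 1 gene share the RNA and the array, so their closeness says nothing of the spread between mice or between hybridisations. The 2 features of Smtn, which stand for different transcripts, kept the same order on every array. Feature 9143 had 0.37, 0.97 and 0.53, and feature 50702 had -0.01, 0.32 and 0.23, so the gene mean rests more on the first. The other 7 members had 1 feature each, and none of the 29 member features passed the threshold when all named features were tested.

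**Figure D2:**
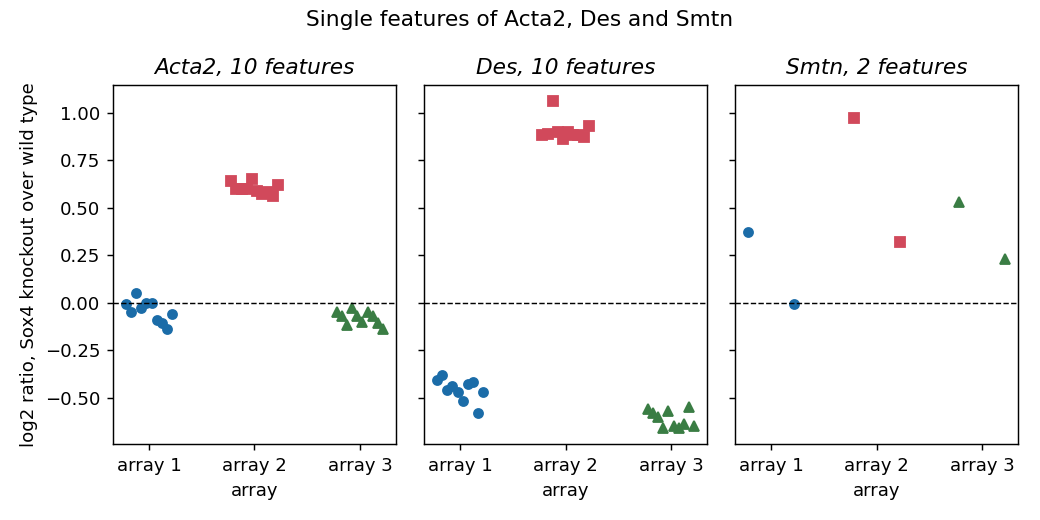
Log2 ratio of knockout over wild type (vertical axis) of every feature of Acta2 (10), Des (10) and Smtn (2) on each array (horizontal axis), 1 point per feature. The features of Acta2 and of Des form tight groups within an array and stand apart on array 2, while those of Smtn differ within each array.

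Array 2 was the highest of the 3 arrays for 8 of the 10 members, where it was the highest for 34% of all genes. The excess of array 2 over the mean of arrays 1 and 3 was 1.44 for Des, 0.86 for Myh11, 0.84 for Mylk, 0.74 for Actg2 and 0.66 for both Acta2 and Tagln. It was 0.41 for Cnn1 and 0.37 for Smtn. Of all genes, 99.2% had a smaller excess than Des and 93.8% a smaller one than Tagln. Lmod1 (-0.04) was level, and Pln (-0.88) went the other way, with 2.36% of genes below it. Acta2, Actg2, Myh11, Tagln and Des, 5 of the 10, were above 0 on array 2 and below 0 on arrays 1 and 3, as 8.41% of all genes were, though the value of Actg2 on array 2 rounds to 0.00. Sox4 itself had this pattern in the mean of its features, which differed among themselves. The feature with -0.82, 0.03 and -0.43 had it. Those with 0.06, 1.23 and -0.02 and with -1.21, -0.72 and -0.93 did not. The contrast between arrays was noticed in the values, has 1 mouse on the side of array 2 and is given as a description.

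**Figure D3:**
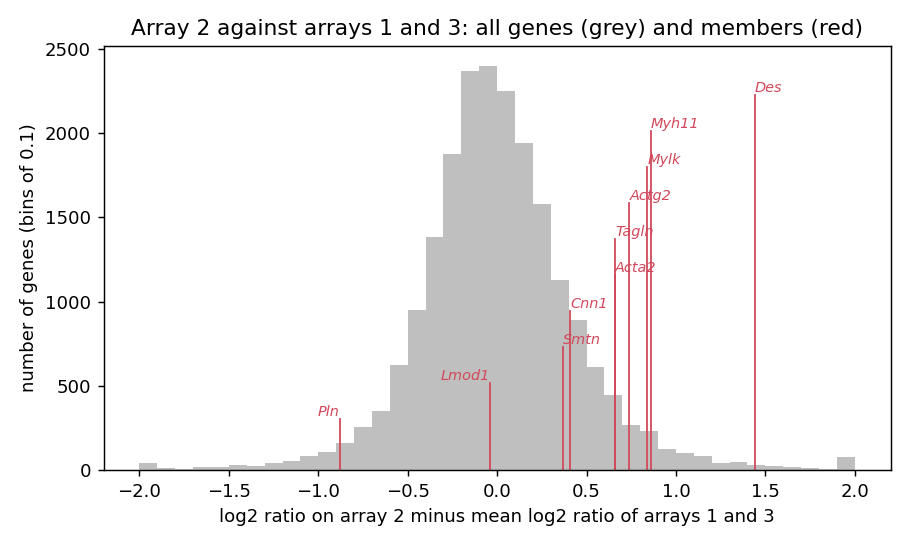
Number of genes (vertical axis) by the log2 ratio on array 2 minus the mean log2 ratio of arrays 1 and 3 (horizontal axis), all 20738 genes in grey with the outermost bins holding everything beyond them, and the 10 members as red lines whose heights carry no value. Des lies farthest to the right of the members, Lmod1 near 0 and Pln to the left.

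Further genes of the contractile machinery were read from 5 lists by role. No member of these lists passed the threshold, in either direction. In the list of actin cytoskeleton and dense plaque, the sites where filaments attach to the cell membrane, 4 of 18 measured genes had an unadjusted p under 0.05, below the 26.3% found over all genes, and the array medians were -0.10, 0.11 and -0.22. Pdlim3, a linker of alpha-actinin, had -0.84, -0.50 and -0.61 (adjusted p = 0.0729). Actn1, a cross-linker of actin made by many cell types, had 1.0, 1.93 and 0.68 (adjusted p = 0.0794), and Vcl, the plaque protein vinculin, had 0.38, 0.55 and 0.36 (adjusted p = 0.102). Pdlim3 was below 0 and the other two above it on every array. Tpm2 (beta tropomyosin), which lies along the actin filament, had -0.74, 0.04 and -0.53, much as Tagln and Actg2 had. The other tropomyosin gene of the list, Tpm1, lay near 0 on every array, with -0.02, 0.07 and -0.12. Both were chosen after their values were seen, so the likeness of Tpm2 to the 2 members is no support for them.

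In the list of myosin light chain phosphorylation, 4 of 11 measured genes had an unadjusted p under 0.05 (all genes: 26.3%), with array medians of -0.09, -0.09 and -0.12. Myl6, the essential light chain that many cells share, had 0.33, 0.67 and 0.40 (adjusted p = 0.104). Prkg1, the cGMP-dependent kinase that relaxes muscle, had -0.29, -0.37 and -1.0 (adjusted p = 0.131), and Ppp1r12a, the targeting subunit of myosin phosphatase, had -0.30, -0.26 and -0.44 (adjusted p = 0.145). Myl9, the regulatory light chain that Mylk phosphorylates, had -0.56, -0.10 and -0.68, below 0 on every array, and was chosen after its value was seen.

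In the list of calcium handling and ion channels, 8 of 17 genes had an unadjusted p under 0.05 (all genes: 26.3%), and 7 of the 8 had a mean below 0, where 14.3% of all genes had both. In this list 12 of the 17 were below 0 on every array, as 27.3% of all genes were. The list's median was -0.26, with array medians of -0.24, -0.14 and -0.38. Itpr1, the calcium release channel opened by inositol trisphosphate, had -0.56, -0.79 and -0.58 (mean -0.64 ± 0.13, adjusted p = 0.0687). Ryr3, a ryanodine receptor, had -0.98, -0.81 and -0.47 (mean -0.76 ± 0.26, adjusted p = 0.0715). Both were below 0 on every array. Atp2a2, the calcium pump that Pln restrains, had 0.61, 0.57 and 0.49, above 0 on every array (mean 0.56 ± 0.06, adjusted p = 0.0761), where Pln was below 0 on every array. Atp2a2 is expressed in most cell types, and which cells of the tissue gave this signal was not tested.

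Among receptors of gut smooth muscle, 1 of 8 measured genes had an unadjusted p under 0.05, below the 26.3% found over all genes. This was the serotonin receptor gene Htr2b, with -0.95, -0.44 and -1.05 (adjusted p = 0.0746). Vipr2, a receptor for vasoactive intestinal peptide, averaged -0.23 ± 0.23, and Tacr1, a receptor for substance P, 0.23 ± 0.24. The muscarinic receptor genes Chrm2 (-0.12 ± 0.40) and Chrm3 (0.02 ± 0.57), which carry the signal of acetylcholine and were chosen after their values were seen, had arrays on both sides of 0.

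Of the 15 regulators of smooth muscle genes, 5 had an unadjusted p under 0.05 (all genes: 26.3%), and the array medians were -0.04, 0.24 and -0.24. Tgfb1, the growth factor TGF-beta 1, had 0.62, 1.46 and 0.73 (adjusted p = 0.0789). Klf4, a repressor of the contractile programme that the gut epithelium also makes, had -1.15, -0.48 and -0.57 (adjusted p = 0.0863), and Foxf2, a factor of gut mesenchyme, had -0.68, -0.28 and -0.50 (adjusted p = 0.102). The 2 partners at the CArG box lay on opposite sides of 0, both chosen after their values were seen. Myocd (myocardin) had -0.61, -0.43 and -1.52 (adjusted p = 0.105), and Srf (serum response factor) had 0.29, 0.45 and 0.32 (adjusted p = 0.135). Neither passed the threshold, so no change of either is shown.

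**Figure D4:**
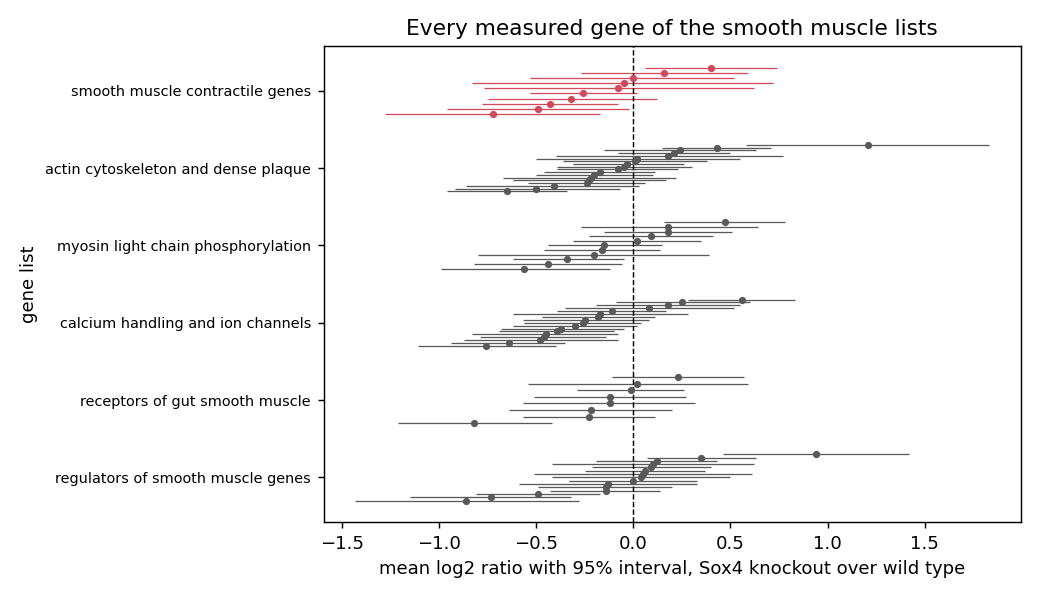
Mean log2 ratio of knockout over wild type with its 95% interval (horizontal axis) for every measured gene of the 10 members (red) and of the 5 lists by role (grey), 1 row of points per list, sorted by mean within it. Most intervals cross 0, and most means of the calcium list lie to its left.

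Other cell types of the jejunal wall were read beside the members. Fibroblast markers had medians of -0.59, 0.26 and -0.24 on arrays 1, 2 and 3. Of these markers, 9 of 10 were highest on array 2, as 34% of all genes were. Pericyte markers (-0.17, 0.20 and -0.21), endothelial markers (-0.34, 0.34 and 0.14) and markers of the interstitial cells of Cajal, the pacemaker cells of the gut (-0.55, 0.10 and -0.37), were also highest on array 2 by their medians. The excess of array 2 was thus also present in lists of other cells, and the part of these cells in the member values was not tested. Kit, the defining marker of the interstitial cells, had -0.74, 0.85 and -0.34, a range of 1.59 against 1.52 for Des, and was chosen after its value was seen. Skeletal and cardiac muscle markers had medians of -0.04, -0.15 and -0.13. The skeletal actin gene Acta1, chosen after its value was seen, had 0.36, 0.98 and 0.23, above Acta2 on every array.

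Mesothelial markers, of the sheet covering the gut, had medians of -0.05, -1.55 and -1.05, so array 2 was the lowest, as it was for Pln. Wt1 had -0.36, -1.75 and -1.05 (adjusted p = 0.0969) and Lrrn4 had -0.11, -1.73 and -1.58 (adjusted p = 0.116). Thbs4, listed with the interstitial cells, was also lowest on array 2, at -0.55, -1.52 and -0.95 (adjusted p = 0.0764). The part of these cells in the Pln value was not tested.

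Adipocyte markers had medians of -1.63, -1.45 and -1.36, and 4 of 8 passed the threshold as lower, where 0.222% of all genes did. These were Adipoq (-4.68 ± 0.41, adjusted p = 0.00209), Cfd (-5.95 ± 0.65, adjusted p = 0.00235), Retn (-2.09 ± 0.02, adjusted p = 0.00664) and Plin1 (-2.12 ± 0.20, adjusted p = 0.0104). None of the 4 passed without array 3, and Retn and Plin1 also did not pass without array 1. These were the only genes past the threshold in the 14 lists read beside the members, and their part in the member values was not tested. Epithelial markers had medians of 0.16, 0.09 and 0.18, with Elf3 at 0.88 ± 0.08 (adjusted p = 0.0543) and Krt19 at 0.83 ± 0.21 (adjusted p = 0.064). Elf3 and Krt19 had the highest means of the 11 epithelial markers. Means lay above 0 for 8 of the 11 and below 0 for 3 (all genes: 53.6% below 0). In the fibroblast list, Pi16 averaged -1.79 ± 0.69 (adjusted p = 0.0625) and Lum -0.54 ± 0.43. Among pericyte markers, Kcnj8 averaged -0.43 ± 0.21 and Abcc9 -0.28 ± 0.26, but the 7 measured were split, 4 with a mean below 0 and 3 above. Among endothelial markers, Lyve1 averaged -0.37 ± 0.40 and Tie1 0.36 ± 0.58. Etv1 of the interstitial cells averaged -0.50 ± 0.49, and the troponin genes Tnnt3 and Tnnt2 of striated muscle -0.85 ± 0.60 and -0.41 ± 0.16. The 15 skeletal and cardiac muscle markers were split, 8 with a mean below 0 and 7 above, and the median of their means was -0.01. Markers of enteric neurons and glia, which lie between the muscle layers, had medians of -0.12, 0.12 and -0.20. Of 10 measured, 6 had a mean below 0 and 4 a mean above it, and 2 were highest on array 2. The lowest p belonged to S100b (-0.60 ± 0.12, adjusted p = 0.074) and Vip (-0.90 ± 0.51, adjusted p = 0.0876).

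**Figure D5:**
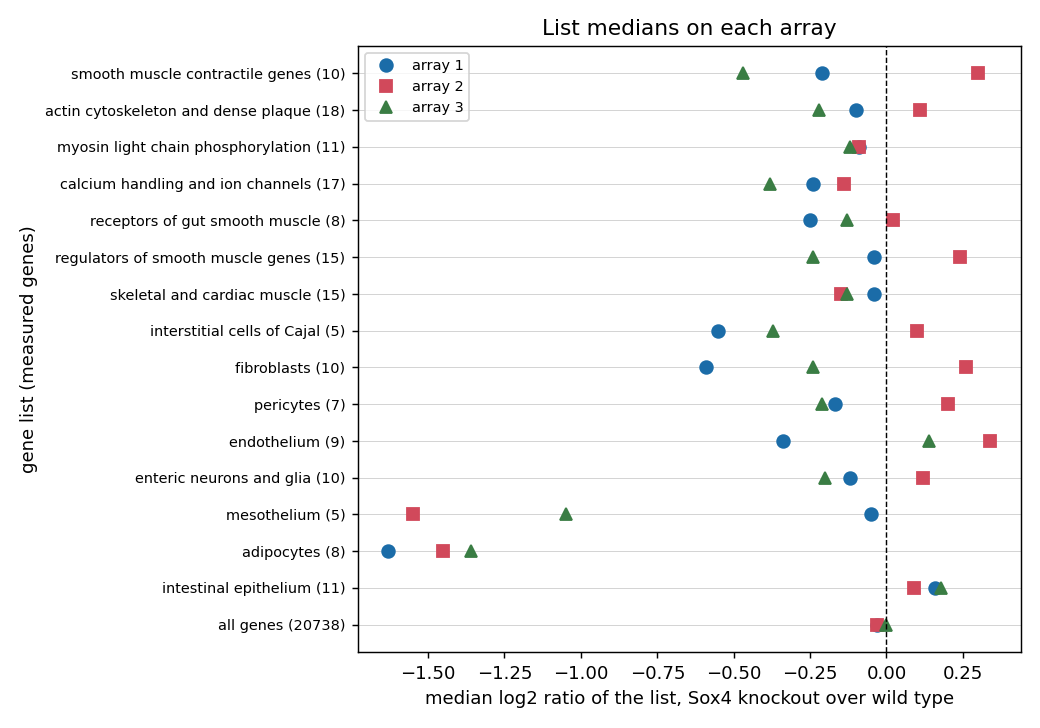
Median log2 ratio of knockout over wild type (horizontal axis) of the members, of the 14 other lists and of all genes (rows, with the number of measured genes), 1 symbol per array. Array 2 lies to the right for the members, fibroblasts and endothelium and to the left for the mesothelium, and the adipocyte list lies at or below -1.36 on all arrays.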

How the data were processed

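The authors deposited a table of log ratios, taken here as log2, with 62976 features on each of 3 two-colour arrays with no missing value. Its array medians of 0.007, 0.003 and 0.011 show that the ratios were centred, while their direction, log base, background correction, normalization and filters are not given in the sources available for this work. With base 10 the table would hold ratios beyond a scanner's range (-7.44 to 5.62). No intensity entered the work, so dim features stayed in, and having only 3 arrays limits precision.

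Gene names came from the array platform's annotation, with symbols brought up to date from a RefSeq table of GRCm38.p6 (29050 by accession, 2061 by symbol, 349 by synonym, 5 kept, 31511 unnamed here). The features of a gene were averaged within each array (20738 genes). Each gene's mean was tested against 0, two-sided, with limma 3.58.1 in R 4.3.3 (2 residual and 3.51 prior degrees of freedom). The p-values were adjusted by Benjamini-Hochberg over all genes. The test was also run on simulated data, but no outcome is given here and no conclusion is drawn from that run. Errors are SDs over arrays, and whether they include a spread between wild-type mice is not known. Tables used Python 3.11.15 and pandas 2.3.3.

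The members and lists were chosen with earlier results of these data known. Named by rule were all members, list genes past the threshold, and the 3 (role lists) or 2 (cell types) with the smallest p. Sox4, Eif2s3y, Xist and the genes marked above as chosen after their values were seen were named outside this rule.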

Additional observations from a re-analysis of the deposited data

How the results depend on the processing

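No member passed the threshold under any of 10 alternatives. These gave 100 adjusted p from limma for the 10 members, the lowest being 0.112. The alternatives reuse the same arrays and are not independent of each other. The median of the member means lay between -0.39 and -0.02 when each array was left out in turn. Directions of members near 0 depended on single arrays. Leaving out 1 array moved Acta2 between -0.06 and 0.28, Myh11 between -0.29 and 0.21, Des between -0.54 and 0.22 and Mylk between -0.36 and 0.34. Without array 2, Acta2 was at -0.06. Centring each array on its median gene put Myh11 at 0.02. Taking the feature with the smallest SD put Vipr2 at 0.11. The count of genes past the threshold was between 4 and 66 with an array left out, 155 with the feature of smallest SD, 139 with features named by accession only and 1 without moderation of the variance. The count in the 14 other lists was between 0 and 4 with an array left out and 0 without moderation. The cause of these shifts was not tested. Scaling to a common spread used limma's median absolute values, since the function planned takes logs of array medians. Each ratio already sets knockout against wild-type RNA within an array. With 1 group of arrays, no further pairing was possible.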
